A study of Mus musculus with 2 samples.

Results

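Expression of 7 genes for collagen crosslinking and processing was described across the cell classes of the Marfan mouse aorta and compared between aortas of mice given GLPG0187 and aortas of mice given vehicle. The genes were chosen by name: Lox, Loxl1 and Loxl2, which encode lysyl oxidases, Plod1 and Plod2, which encode lysyl hydroxylases, Pcolce, which encodes a procollagen processing enhancer, and Serpinh1, which encodes the collagen chaperone HSP47. All 7 are among the 18920 genes in the files. They were chosen with earlier results of these data known.

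Fibrillar collagens are made as procollagens in the endoplasmic reticulum, where lysyl hydroxylases modify lysines and HSP47 holds the triple helix in its folded state. After secretion, BMP1-type proteases cut off the C-terminal propeptide, and PCOLCE speeds up that step. Lysyl oxidases then oxidise lysines in collagen and elastin outside the cell, so that the molecules can be joined by covalent crosslinks. In the aorta these crosslinks carry much of the strength of the wall, and loss of LOX causes aortic aneurysm in mice and humans.

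The GLPG0187 group was 1 pool of Fbn1C1041G/+ mice that received GLPG0187, an antagonist of integrin alpha-v, every day between 6 and 16 weeks of age. The vehicle group was 1 pool of Fbn1C1041G/+ mice that received vehicle over the same weeks, so both groups carried the fibrillin-1 mutation C1041G on 1 allele, a model of Marfan syndrome. Aortic root and ascending aorta were taken at 16 weeks, males and females were pooled in equal numbers, and 1 droplet library was made per group with 10x Genomics 3' chemistry. The number of animals per pool is not known from the sources used. With 1 library per group, the effect of treatment cannot be told apart from that of the animals, the dissection or the library. No test was possible, no p-value is given, and "higher" and "lower" describe sizes in these 2 libraries only.

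From 4397 cells under GLPG0187 and 2961 under vehicle, 48 called doublets with GLPG0187 and 16 with vehicle were taken out, which left 4349 with GLPG0187 and 2945 with vehicle. Values are whole numbers that the authors had corrected for depth: totals per cell spanned 12135 to 16719 with GLPG0187 and 12078 to 16187 with vehicle, with medians of 3773 genes detected with GLPG0187 and 3788 with vehicle. The depth before that correction is unknown, and 5 cell barcodes occur in both libraries. Cells carrying Xist but no Y-linked RNA made up 26.2% under GLPG0187 and 32.1% under vehicle, and cells with Y-linked RNA but no Xist made up 61.7% under GLPG0187 and 56.5% under vehicle.

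Cells were clustered without the 7 genes and named by marker genes. Smooth muscle cells (SMC-like, all 7 SMC markers present) numbered 1643 with GLPG0187 and 801 with vehicle. Fibroblast-like cells fell into a cluster led by Pi16 and Clec3b (676 cells with GLPG0187 and 602 with vehicle, 12 of 12 fibroblast markers) and a cluster led by Gdf10, Hsd11b1 and Il6 (396 cells with GLPG0187 and 293 with vehicle, 11 of 12). A cluster led by Tbx20, Vcan and Prss35 (906 cells with GLPG0187 and 714 with vehicle) and a cluster led by Chil1, Chad, Spp1 and Comp (187 cells with GLPG0187 and 203 with vehicle) passed 7 and 8 of the 12 fibroblast markers and were given no cell type name. Macrophage-like cells (341 with GLPG0187 and 179 with vehicle), lymphatic endothelial-like cells (138 with GLPG0187 and 80 with vehicle), Schwann-like cells (23 with GLPG0187 and 40 with vehicle), endothelial-like cells (22 with GLPG0187 and 24 with vehicle) and dendritic-like cells (17 with GLPG0187 and 9 with vehicle) made up the rest.

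Among SMC-like cells, 64 of 1643 with GLPG0187 and 126 of 801 with vehicle belonged to a sub-cluster called modulated SMC-like. Its cells had at least 50% of 12 markers of modulated SMC, such as Vcam1, Timp1 and Tnfrsf11b, at 1.5-fold or more over the other SMC-like cells, and Myh11 below 0.5 times their level. The share was 3.90% (95% exact binomial interval 3.01 to 4.95) with GLPG0187 and 15.7% (13.3 to 18.4) with vehicle. The remaining SMC-like cells, 1579 with GLPG0187 and 675 with vehicle, are called contractile SMC-like. All intervals of shares cover counting error between cells only.

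The plainest pattern was a division of the crosslinking enzymes between cell classes, the same in both libraries. Lox was high in SMC-like cells, the Chad cluster and Gdf10 fibroblast-like cells, and near the macrophage level in the Tbx20 cluster. Loxl2 was high in the Tbx20 cluster and low in SMC-like cells. Loxl1, Pcolce and Serpinh1 were highest in fibroblast-like cells, Plod2 was highest in the Chad cluster, and Plod1 varied little. Between the libraries, 0 of the 7 genes were 1.5-fold higher or lower in SMC-like cells, where 3.00% of all measured genes were, or in fibroblast-like cells, where 3.64% were. Such a count is near the share over all genes and shows nothing particular to the 7.

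**Figure D1:**
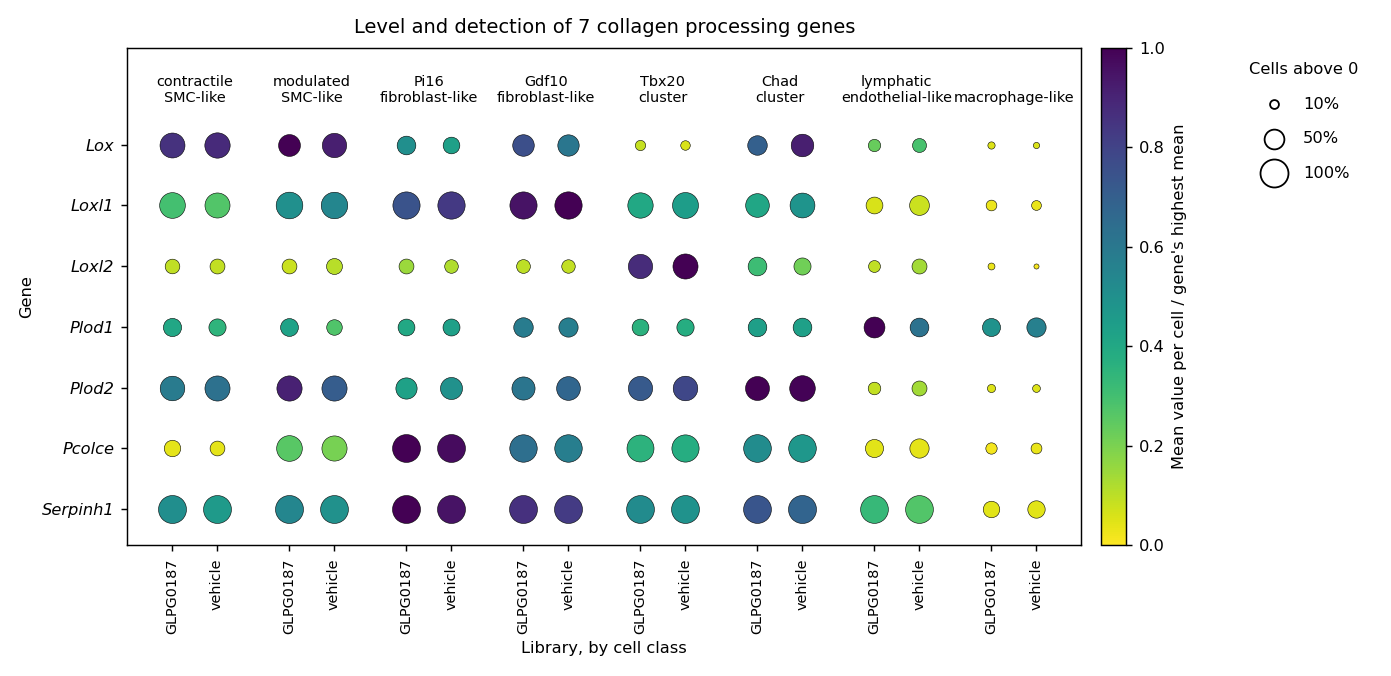
Level and detection of the 7 genes in 8 cell classes, GLPG0187 left of vehicle in each pair. Colour gives the mean depth-corrected value per cell divided by the gene's highest mean among these classes and libraries, and dot size gives the percentage of cells with a value above 0. Loxl2 is dark only in the Tbx20 cluster, where Lox is pale.

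Lox encodes lysyl oxidase itself, which acts on both elastin and collagen. In contractile SMC-like cells it averaged 2.23 per cell with GLPG0187 and 2.30 with vehicle, and was above 0 in 79.7% (77.6 to 81.6) of cells with GLPG0187 and 82.1% (79.0 to 84.9) with vehicle. Modulated SMC-like cells averaged 2.61 with GLPG0187 and 2.39 with vehicle, which was the contractile level multiplied by 1.17 with GLPG0187 and 1.04 with vehicle. These means rested on 1 cell per library, which held 33 with GLPG0187 and 49 with vehicle. Without it the modulated means were 2.13 with GLPG0187 and 2.02 with vehicle, below the contractile means. The share of modulated cells above 0 was 60.9% (47.9 to 72.9) with GLPG0187 and 75.4% (66.9 to 82.6) with vehicle, in both libraries lower than in contractile cells, and the median was 1 against 2. Lox was thus carried by most modulated cells, in which Myh11 was low.

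In the Chad cluster, Lox averaged 1.82 with GLPG0187 and 2.39 with vehicle. Gdf10 fibroblast-like cells averaged 1.98 with GLPG0187 and 1.58 with vehicle, and Pi16 fibroblast-like cells 1.32 with GLPG0187 and 1.14 with vehicle. The 7 SMC markers summed to a mean of 52.9 per Gdf10 fibroblast-like cell with GLPG0187 (median 18) and 58.7 with vehicle (median 17). Their part in the Lox level was not tested. The order among SMC-like cells, the Chad cluster and Gdf10 fibroblast-like cells was not settled, because the ranges over the libraries overlapped between neighbours. The Tbx20 cluster averaged 0.226 with GLPG0187 and 0.161 with vehicle, so that contractile SMC-like cells lay 9.88-fold above it with GLPG0187 and 14.3-fold above it with vehicle.

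Free RNA in the droplets was not measured, and its part in such low values was not tested. Macrophage-like cells averaged 0.135 with GLPG0187 and 0.145 with vehicle. Their share of cells above 0 was 6.74% (4.32 to 9.95) with GLPG0187 and 5.03% (2.32 to 9.33) with vehicle. The share in the Tbx20 cluster, 13.6% (11.4 to 16.0) with GLPG0187 and 11.6% (9.37 to 14.2) with vehicle, lay above this. The Tbx20 cluster had medians of 3841 genes detected per cell with GLPG0187 and 4037 with vehicle, against 3179 with GLPG0187 and 3052 with vehicle in macrophage-like cells.

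Lox was above 0 in 44.7% (40.9 to 48.5) of Pi16 fibroblast-like cells under GLPG0187, against 35.5% (31.7 to 39.5) with vehicle. In the Chad cluster the share was 48.7% (41.3 to 56.1) with GLPG0187 and 65.0% (58.0 to 71.6) with vehicle. The directions were opposite in these classes. The intervals count cells of 1 library per group and do not measure a difference between treatments. The 7 SMC markers were all detected in both libraries. In Pi16 fibroblast-like cells their sum had a higher mean with GLPG0187 but a similar median. It averaged 21.3 per cell with GLPG0187 (median 13, range 1 to 659) and 14.2 with vehicle (median 12, range 0 to 127). In the Chad cluster that sum averaged 27.2 (median 16, range 2 to 379) with GLPG0187 and 23.8 (median 11, range 0 to 342) with vehicle. Lox was lower with GLPG0187 there. The part of these markers in either result was not tested.

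Loxl1 encodes a lysyl oxidase known for the upkeep of elastic fibres. Gdf10 fibroblast-like cells averaged 6.75 with GLPG0187 and 7.11 with vehicle, and Pi16 fibroblast-like cells averaged 5.29 with GLPG0187 and 5.92 with vehicle. More than 94% of the cells in each of these clusters carried it, with shares between 94.4% and 95.3%. Contractile SMC-like cells averaged 2.12 with GLPG0187 and 1.93 with vehicle, so the Gdf10 cluster lay 3.19-fold above them with GLPG0187 and 3.68-fold with vehicle.

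Loxl1 was also higher in modulated than in contractile SMC-like cells. The modulated cells averaged 3.58 with GLPG0187 and 3.83 with vehicle, which was above the contractile level by 1.69-fold with GLPG0187 and 1.98-fold with vehicle. The Chad cluster (2.90 with GLPG0187 and 3.42 with vehicle) and the Tbx20 cluster (2.84 with GLPG0187 and 3.18 with vehicle) lay between, and macrophage-like cells had 0.214 with GLPG0187 and 0.235 with vehicle. The order of the 8 largest classes was identical in both libraries (Spearman's rho of 1 over 8 class means).

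Loxl2 encodes a lysyl oxidase with scavenger receptor domains that crosslinks collagen IV of basement membranes as well as fibrillar collagen. The Tbx20 cluster averaged 3.51 with GLPG0187 and 4.01 with vehicle, and 75.1% (72.1 to 77.8) of its cells with GLPG0187 and 80.4% (77.3 to 83.2) with vehicle were above 0. Contractile SMC-like cells averaged 0.384 with GLPG0187 and 0.366 with vehicle, so the Tbx20 cluster lay 9.15-fold above them with GLPG0187 and 11.0-fold with vehicle. The cluster made up 20.8% of the cells and held 67.1% of all Loxl2 values with GLPG0187, and made up 24.2% of the cells and held 74.4% of Loxl2 values with vehicle.

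The Chad cluster was intermediate for Loxl2, at 1.26 with GLPG0187 and 0.862 with vehicle. Schwann-like cells averaged 1.13 over 23 cells with GLPG0187 and 1.25 over 40 cells with vehicle. Fibroblast-like and modulated SMC-like cells ranged from 0.328 to 0.607 over both libraries, and their order relative to each other was not settled. Macrophage-like cells had 0.120 with GLPG0187 and 0.0503 with vehicle, with 6.16% (3.85 to 9.26) of cells above 0 with GLPG0187 and 3.35% (1.24 to 7.15) with vehicle.

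Counted cell by cell, most contractile SMC-like cells carried Lox without Loxl2, and most cells of the Tbx20 cluster carried Loxl2 without Lox. In contractile SMC-like cells, 57.2% (54.7 to 59.6) with GLPG0187 and 57.2% (53.4 to 61.0) with vehicle carried Lox without Loxl2, and 4.94% with GLPG0187 and 3.56% with vehicle carried Loxl2 without Lox. Both genes were above 0 in 22.5% (20.4 to 24.6) of these cells with GLPG0187 and 24.9% (21.7 to 28.3) with vehicle. In the Tbx20 cluster, 64.8% (61.6 to 67.9) with GLPG0187 and 70.7% (67.2 to 74.0) with vehicle carried Loxl2 without Lox, and 3.31% with GLPG0187 and 1.96% with vehicle carried Lox without Loxl2, while 10.3% (8.37 to 12.4) with GLPG0187 and 9.66% (7.60 to 12.1) with vehicle carried both. In contractile SMC-like cells Loxl2 was above 0 in 28.2% of the cells with Lox and 24.3% of those without it with GLPG0187, and in 30.3% and 19.8% with vehicle. Within contractile SMC-like cells Spearman's rho between Lox and Loxl2 was 0.07 over 1579 cells under GLPG0187 and 0.09 over 675 cells under vehicle, and within the Tbx20 cluster it was 0.04 with GLPG0187 and 0.08 with vehicle.

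In the Chad cluster, cells with Lox and Loxl2 together made up 19.3% (13.9 to 25.6) with GLPG0187 and 26.6% (20.7 to 33.2) with vehicle, and in modulated SMC-like cells 18.8% (10.1 to 30.5) with GLPG0187 and 26.2% (18.8 to 34.8) with vehicle, with intervals that overlapped those of contractile SMC-like cells. Chad cluster cells with Loxl2 but not Lox made up 25.7% (19.6 to 32.6) with GLPG0187 and 10.8% (6.92 to 15.9) with vehicle. Among Pi16 fibroblast-like cells, 14.1% (11.5 to 16.9) with GLPG0187 and 7.31% (5.36 to 9.69) with vehicle carried both.

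**Figure D2:**
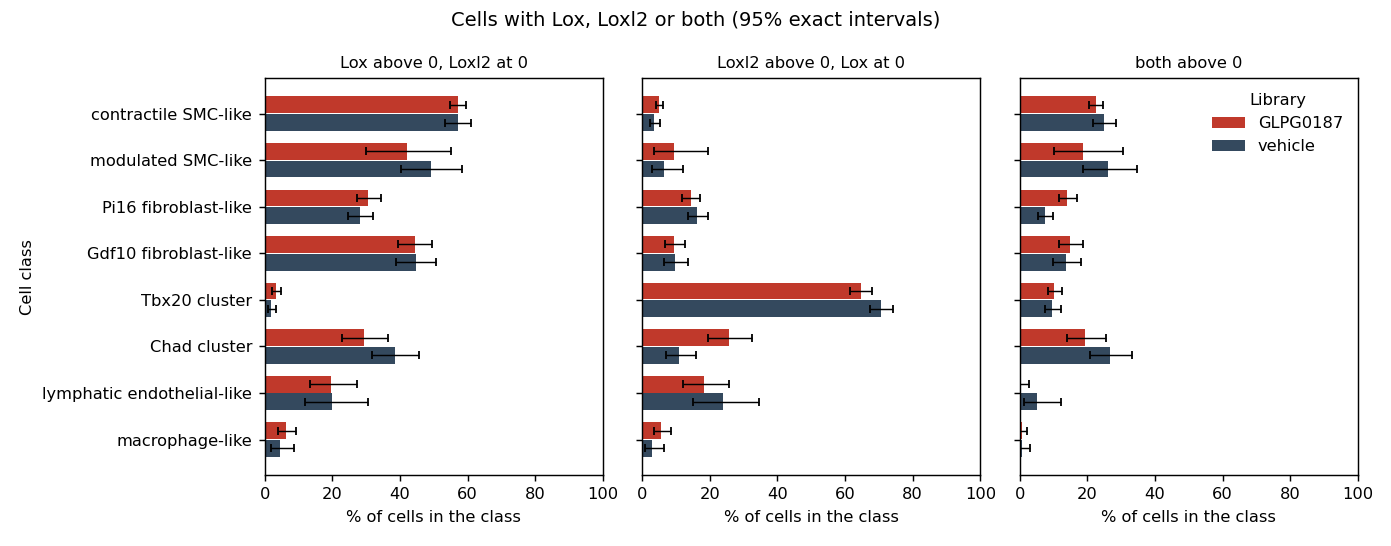
Percentage of cells in each class with Lox above 0 and Loxl2 at 0 (left), Loxl2 above 0 and Lox at 0 (middle) and both above 0 (right), GLPG0187 above vehicle. Error bars are 95% exact binomial intervals for counting error. Contractile SMC-like cells stand out on the left with 57.2% in both libraries and the Tbx20 cluster in the middle with 64.8% under GLPG0187 and 70.7% under vehicle.

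Plod1 encodes lysyl hydroxylase 1, which acts mainly on helical lysines of collagen. It was the most evenly spread of the 7 genes over the classes with over 50 cells in each library. The mean over both libraries in the highest of these classes was 2.33-fold that in the lowest. This compares with 17.8-fold for Lox, 30.9-fold for Loxl1, 44.1-fold for Loxl2, 18.7-fold for Plod2, 37.4-fold for Pcolce and 21.8-fold for Serpinh1. Macrophage-like cells averaged 0.672 with GLPG0187 and 0.777 with vehicle, with 41.6% (36.4 to 47.1) of cells above 0 with GLPG0187 and 47.5% (40.0 to 55.1) with vehicle. Contractile SMC-like cells averaged 0.553 with GLPG0187 and 0.476 with vehicle.

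The highest Plod1 level among the larger classes was in lymphatic endothelial-like cells, at 1.36 with GLPG0187 and 0.850 with vehicle. Endothelial-like cells averaged 0.909 over 22 cells with GLPG0187 and 1.88 over 24 cells with vehicle, so the difference between libraries ran the other way there, over few cells. The levels of Plod1 in the Chad cluster, Pi16 fibroblast-like cells, contractile and modulated SMC-like cells and the Tbx20 cluster overlapped over the libraries. Their order was accordingly the least stable of the 7 genes, with a Spearman's rho of 0.71 between the libraries over 8 class means.

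Plod2 encodes lysyl hydroxylase 2, the enzyme for the telopeptide lysines that give rise to the most stable crosslinks. It was highest in the Chad cluster, at 3.03 with GLPG0187 and 3.00 with vehicle. This was 2.34-fold with GLPG0187 and 1.99-fold with vehicle over the level of Pi16 fibroblast-like cells (1.30 with GLPG0187 and 1.51 with vehicle). Modulated SMC-like cells averaged 2.75 with GLPG0187 and 2.15 with vehicle, and the Tbx20 cluster 2.18 with GLPG0187 and 2.38 with vehicle. Contractile SMC-like cells had 1.78 with GLPG0187 and 1.91 with vehicle, and macrophage-like cells 0.161 with GLPG0187 and 0.162 with vehicle, which was its lowest level among the larger classes.

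Serpinh1 was detected in nearly every cell of every mesenchymal class. Its mean was 15.3 with GLPG0187 and 14.6 with vehicle in Pi16 fibroblast-like cells, 13.2 with GLPG0187 and 12.7 with vehicle in Gdf10 fibroblast-like cells, and 11.3 with GLPG0187 and 10.4 with vehicle in the Chad cluster. Modulated SMC-like cells (8.30 with GLPG0187 and 7.66 with vehicle), the Tbx20 cluster (8.0 with GLPG0187 and 7.50 with vehicle) and contractile SMC-like cells (7.82 with GLPG0187 and 7.06 with vehicle) did not differ beyond the spread between libraries. Lymphatic endothelial-like cells had 5.08 with GLPG0187 and 4.15 with vehicle, and macrophage-like cells 0.669 with GLPG0187 and 0.704 with vehicle.

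Pcolce separated fibroblast-like from contractile SMC-like cells more sharply. Pi16 fibroblast-like cells averaged 13.0 with GLPG0187 and 12.6 with vehicle, against 0.537 with GLPG0187 and 0.508 with vehicle in contractile SMC-like cells, a ratio of 24.1-fold with GLPG0187 and 24.8-fold with vehicle. Gdf10 fibroblast-like cells averaged 8.25 with GLPG0187 and 7.48 with vehicle, the Chad cluster 6.73 with GLPG0187 and 6.08 with vehicle, and the Tbx20 cluster 4.66 with GLPG0187 and 4.94 with vehicle. Fibroblast-like cells of both kinds together held 64.0% of all Pcolce values with GLPG0187 and 63.4% with vehicle.

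Within the SMC lineage, Pcolce was also much higher in modulated than in contractile cells. Modulated SMC-like cells averaged 3.38 with GLPG0187 and 2.67 with vehicle, above the contractile level by 6.28-fold with GLPG0187 and 5.25-fold with vehicle, and 84.4% (73.1 to 92.2) of them with GLPG0187 and 81.0% (73.0 to 87.4) with vehicle were above 0. The ratio of modulated to contractile cells was 1.55-fold with GLPG0187 and 1.13-fold with vehicle for Plod2 and 1.06-fold with GLPG0187 and 1.09-fold with vehicle for Serpinh1. The sum of the 12 fibroblast markers averaged 55.9 per modulated cell with GLPG0187 (median 24) and 30.9 with vehicle (median 18). In contractile SMC-like cells it averaged 18.8 with GLPG0187 (median 12) and 18.7 with vehicle (median 11). The part of this sum in the Pcolce level was not tested. Some markers stand in both the fibroblast list and the modulated list (Dcn and Lum).

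**Figure D3:**
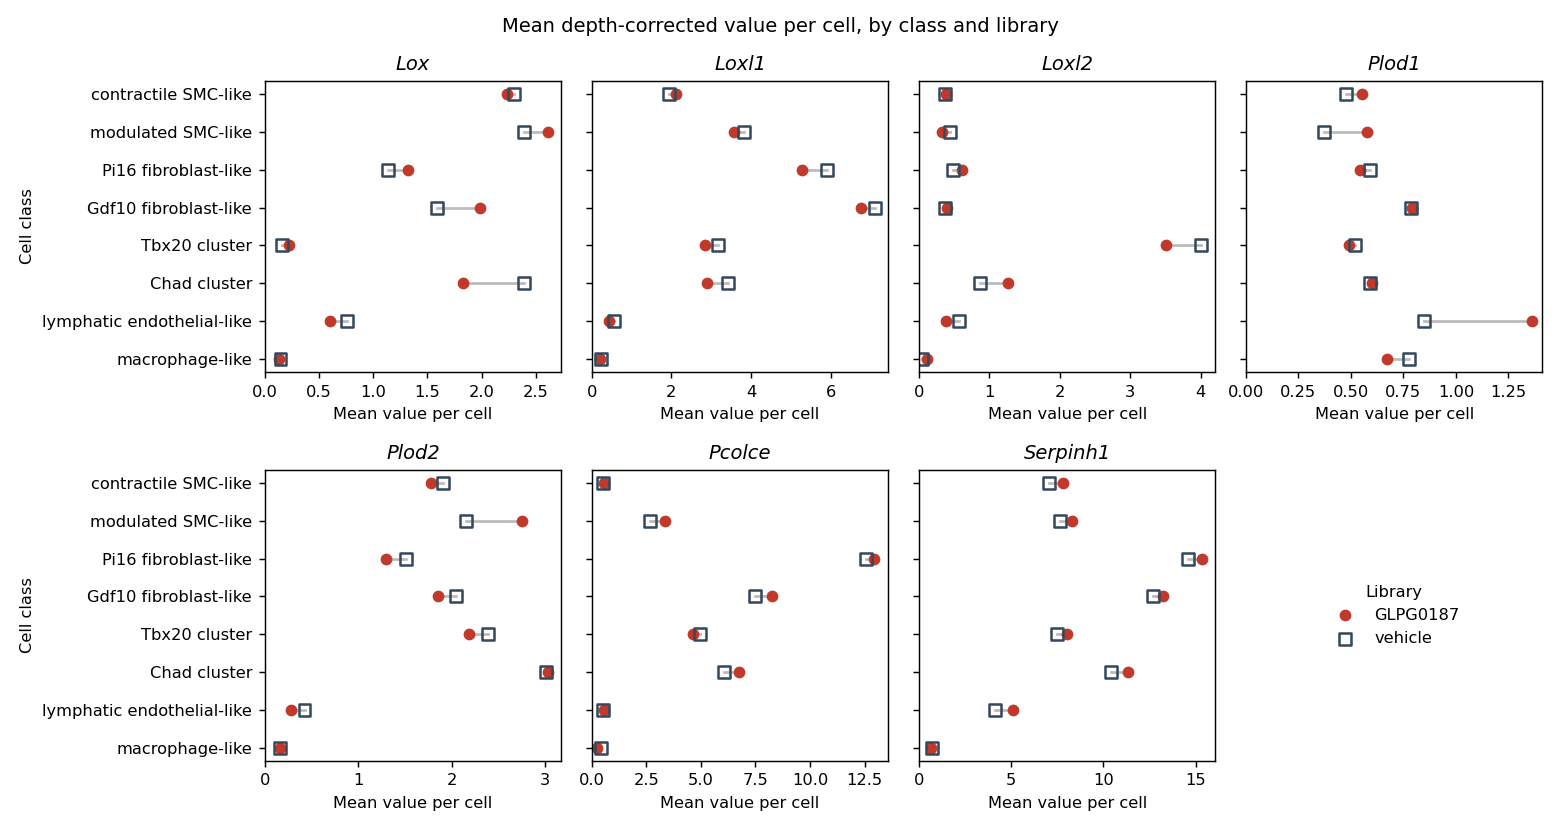
Mean depth-corrected value per cell of each gene (x axis, from 0) in 8 cell classes (y axis), with filled circles for GLPG0187 and open squares for vehicle, which lie on each other where the libraries were alike. Among other gaps are Lox in the Chad cluster (1.82 with GLPG0187 and 2.39 with vehicle) and Plod1 in lymphatic endothelial-like cells (1.36 with GLPG0187 and 0.850 with vehicle).

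Between the libraries the 7 genes moved little in the classes that make most of the wall. In SMC-like cells, 0 of 7 were 1.5-fold higher or lower with GLPG0187, where 3.00% of 10680 measured genes were (0.515% higher and 2.48% lower). A gene was measured when its values summed to at least 100 over both libraries, and ratios are of summed values plus 1, divided by the total of the class. The log2 ratios of GLPG0187 over vehicle ran from -0.38 for Pcolce to 0.27 for Plod1, with a median of -0.03, beside -0.04 over all measured genes. In fibroblast-like cells, 0 of 7 passed 1.5-fold, where 3.64% of 10279 genes did, and the ratios ran from -0.17 for Plod2 to 0.28 for Lox with a median of 0.03, beside -0.03 over all measured genes.

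The Tbx20 cluster and the Chad cluster had no such gene either. In the Tbx20 cluster 0 of 7 passed 1.5-fold (3.12% of 10322 genes), and Loxl2, the enzyme that marks it, stood at -0.18. In the Chad cluster 0 of 7 passed (3.81% of 6384 genes), with Loxl2 nearest the limit at 0.56 and Lox lowest at -0.38. In contractile SMC-like cells 0 of 7 passed (2.05% of 10500 genes), and in modulated SMC-like cells 0 of the 5 that were measured (3.77% of 3928 genes). Loxl2 and Plod1 did not reach the minimum in the modulated cells. Pi16 fibroblast-like cells (0 of 7, with 4.57% of 9324 genes) and Gdf10 fibroblast-like cells (0 of 7, with 4.69% of 7870 genes) gave the same count.

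Outside the mesenchymal classes, single genes passed the limit. In lymphatic endothelial-like cells Plod1 was higher with GLPG0187, with a log2 ratio of 0.65, the 1 of 5 measured genes to pass (4.65% of 4300 genes were higher and 8.49% higher or lower), and the share of cells above 0 was 55.8% (47.1 to 64.2) with GLPG0187 and 45.0% (33.8 to 56.5) with vehicle. All 12 fibroblast markers were detected there. Their summed mean was 32.9 (median 16, range 0 to 615) with GLPG0187 and 19.7 (median 14, range 0 to 157) with vehicle. The modulated SMC markers summed to 53.4 with GLPG0187 and 37.1 with vehicle, and the part of either list in the Plod1 ratio was not tested. In macrophage-like cells Pcolce was lower, with a log2 ratio of -0.80, the 1 of 4 measured genes to pass (3.12% of 6402 genes were lower and 9.68% higher or lower). The Pcolce means were 0.252 with GLPG0187 and 0.430 with vehicle. The share of cells above 0 was 16.4% (12.7 to 20.8) with GLPG0187 and 15.1% (10.2 to 21.2) with vehicle, and the highest single cell held 5 with GLPG0187 and 16 with vehicle. With values capped at the 99th percentile the ratio was -0.38. All 12 fibroblast markers were also detected in macrophage-like cells, with a summed mean of 19.6 (range 0 to 427) with GLPG0187 and 21.4 (range 0 to 455) with vehicle, and their part in these values was not tested.

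**Figure D4:**
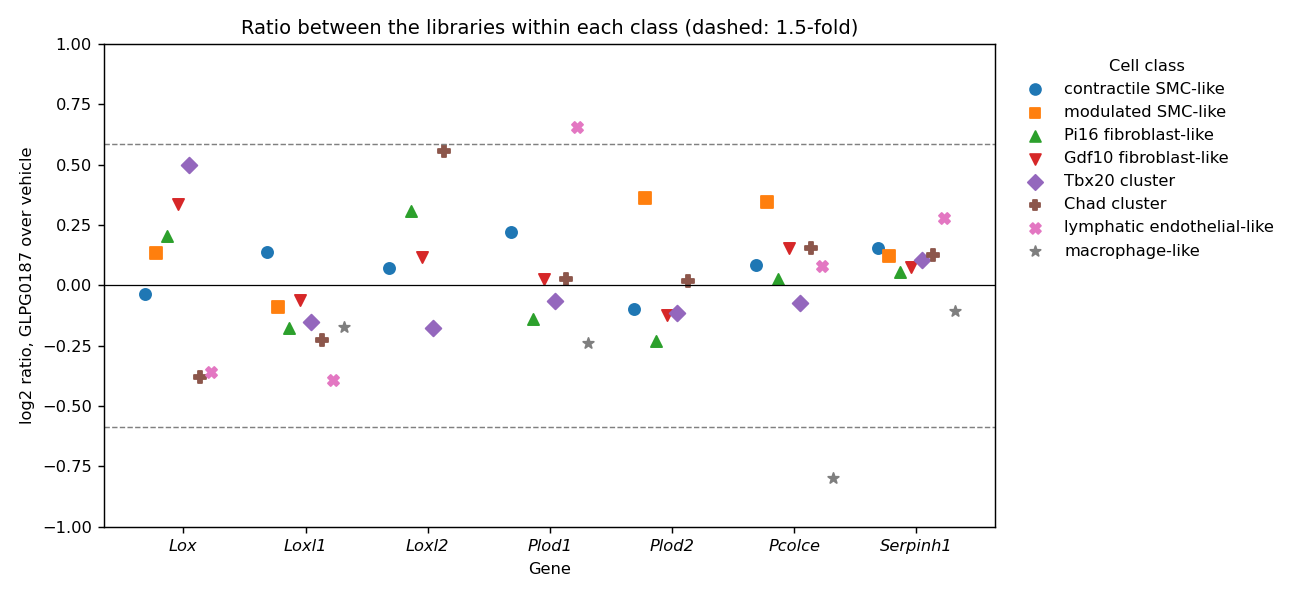
log2 ratio of GLPG0187 over vehicle (y axis) for each of the 7 genes (x axis) in 8 classes, shown where the values summed to at least 100. Dashed lines mark 1.5-fold in either direction. Plod1 in lymphatic endothelial-like cells (0.65) and Pcolce in macrophage-like cells (-0.80) lie outside them.

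Pcolce in SMC-like cells differed between the whole class and its parts. Over all SMC-like cells it averaged 0.648 with GLPG0187 and 0.848 with vehicle (log2 ratio -0.38), although it was not lower with GLPG0187 in either the contractile cells (log2 ratio 0.08) or the modulated cells (0.35). With modulated cells set to 7.77% of SMC-like cells in both libraries, the means were 0.758 for GLPG0187 and 0.676 for vehicle, a log2 ratio of 0.16. Among contractile sub-clusters, the one led by Hspa1a and other heat shock genes (657 cells with GLPG0187 and 243 with vehicle) had 0.341 with GLPG0187 and 0.185 with vehicle (log2 ratio 0.87), the one led by Igfbp2 (624 cells with GLPG0187 and 243 with vehicle) had 0.506 with GLPG0187 and 0.379 with vehicle (0.41), and the one led by Tnnt2 and Dcn (298 cells with GLPG0187 and 156 with vehicle) had 1.03 with GLPG0187 and 1.31 with vehicle (-0.34).

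These SMC values depend on where the modulated cells are delimited. When Myh11 had only to lie below the other SMC-like cells, the Tnnt2 sub-cluster also counted as modulated, and Pcolce then stood at 0.66 in contractile and -0.39 in modulated SMC-like cells. When clustering scaled the genes of each library separately, it was -0.51 in contractile cells. Among cells with Xist but no Y-linked RNA, Pcolce over all SMC-like cells averaged 0.665 with GLPG0187 and 0.565 with vehicle (0.25). Among cells with Y-linked RNA but no Xist it averaged 0.605 with GLPG0187 and 0.970 with vehicle (-0.68), so the direction differed between the cells of female and male animals in the pools, a difference that was not tested. Another 33 SMC-like cells, led by Ablim1 and Kcnk3, occurred with vehicle only, with a Pcolce mean of 0.0606. Without them the ratio over all SMC-like cells was -0.44. Xist was also among the leading genes of these 33 cells. The vehicle mean of 0.565 in cells with Xist but no Y-linked RNA rested on 246 cells. The part of the 33 cells in that mean, and so in the opposite directions above, was not tested.

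**Figure D5:**
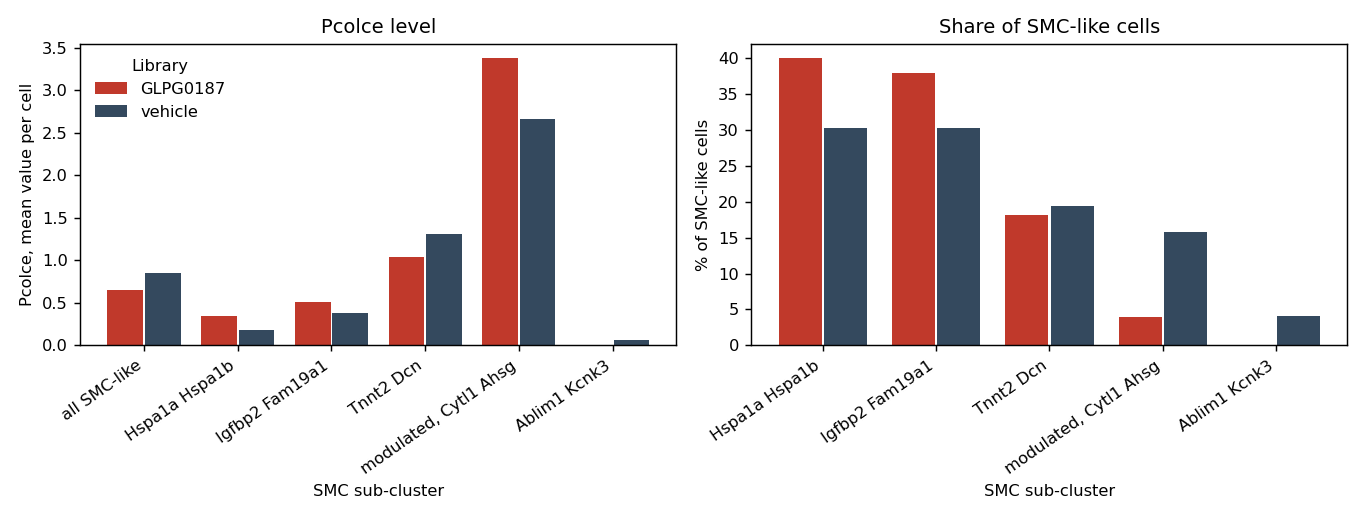
Left, mean Pcolce value per cell in all SMC-like cells and in their sub-clusters, named by their leading genes; right, percentage of SMC-like cells in each sub-cluster; GLPG0187 left of vehicle. Pcolce is highest in the modulated sub-cluster, which makes up 3.90% of SMC-like cells with GLPG0187 and 15.7% with vehicle.

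Summed over all cells of each library, Pcolce, Loxl2 and Loxl1 were lower with GLPG0187, by less than 1.5-fold. Pcolce averaged 4.32 with GLPG0187 and 5.23 with vehicle (log2 ratio -0.28), Loxl2 1.09 with GLPG0187 and 1.31 with vehicle (-0.27), and Loxl1 3.02 with GLPG0187 and 3.58 with vehicle (-0.25). With the same class shares imposed on both libraries these ratios became 0.04 for Pcolce, -0.08 for Loxl2 and -0.09 for Loxl1. SMC-like cells made up 37.8% under GLPG0187 and 27.2% under vehicle, and fibroblast-like cells 24.6% under GLPG0187 and 30.4% under vehicle. Lox, the SMC-weighted member, ran the other way over all cells, at 1.39 with GLPG0187 and 1.26 with vehicle (0.14), and stood at 0.03 with equal shares.

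In SMC-like and fibroblast-like cells the other genes of collagen processing gave a similar picture. Of 28 listed, 27 are in the files and 21 were measured in each of SMC-like and fibroblast-like cells. Beside 3.00% of all measured genes in SMC-like and 3.64% in fibroblast-like cells, 0 of these 21 passed 1.5-fold in either. Their median log2 ratio was -0.01 in SMC-like and 0.00 in fibroblast-like cells, and the lowest measured ratio in SMC-like cells was -0.46, for Pcolce2, a relative of Pcolce that is named here because of that value. P4ha1, a prolyl hydroxylase subunit that makes the triple helix stable, averaged 3.17 with GLPG0187 and 2.72 with vehicle in SMC-like cells (0.23); in fibroblast-like cells its means were 3.11 with GLPG0187 and 3.11 with vehicle (-0.01). P4hb, its partner subunit, stood at 0.04 and 0.12 in SMC-like and fibroblast-like cells, Plod3, the third lysyl hydroxylase, at 0.09 and 0.09, and Loxl3, another lysyl oxidase, at 0.07 and 0.07. Bmp1, the propeptide protease that PCOLCE enhances, stood at -0.18 in SMC-like cells (0.273 per cell with GLPG0187 and 0.310 with vehicle) and 0.08 in fibroblast-like cells (1.22 with GLPG0187 and 1.15 with vehicle). In lymphatic endothelial-like cells 1 of 11 measured processing genes passed, Plod3 (0.85), where 8.49% of 4300 genes were higher or lower. In the Chad cluster 1 of 21 passed (3.81% of 6384 genes) and in macrophage-like cells 1 of 9 (9.68% of 6402 genes).

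The substrates and partners of the enzymes did not pass 1.5-fold in SMC-like or fibroblast-like cells either (0 of 13 in both). Over all measured genes 3.00% passed in SMC-like and 3.64% in fibroblast-like cells. In SMC-like cells Eln, the gene of elastin, averaged 14.0 with GLPG0187 and 15.5 with vehicle (-0.13), Col1a1 5.60 with GLPG0187 and 5.67 with vehicle (-0.01), Col3a1 16.0 with GLPG0187 and 13.5 with vehicle (0.25), Fbln5, which tethers elastin and lysyl oxidases to microfibrils, 9.30 with GLPG0187 and 11.4 with vehicle (-0.29), and Efemp2, which binds lysyl oxidase, 1.18 with GLPG0187 and 1.23 with vehicle (-0.05). In fibroblast-like cells the same 5 genes stood at 0.04, -0.03, -0.13, -0.14 and 0.03. In the 64 modulated SMC-like cells with GLPG0187 and 126 with vehicle, 3 of 12 measured substrates and partners were higher with GLPG0187: Postn (6.98 with GLPG0187 and 3.16 with vehicle, log2 ratio 1.15), Fmod (1.61 with GLPG0187 and 0.754 with vehicle, 1.10) and Col5a2 (4.39 with GLPG0187 and 2.90 with vehicle, 0.61). Adamts2, which removes the N-terminal propeptide of procollagen, was the 1 of 17 measured processing genes to pass there (1.0 with GLPG0187 and 0.611 with vehicle, 0.72). Over all genes measured in the modulated cells, 1.65% were higher by 1.5-fold. The 12 fibroblast markers summed to a mean of 55.9 per modulated cell with GLPG0187 (median 24, range 2 to 315) and 30.9 with vehicle (median 18, range 1 to 279). Their part in these differences was not tested. These 4 genes were singled out after their values were seen.

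Hypoxia-response genes were listed because Plod1, Plod2, P4ha1 and several lysyl oxidases are known targets of hypoxia-inducible factors. In SMC-like cells 0 of 15 were 1.5-fold higher and 1 was lower, Egln3, at means of 0.0390 with GLPG0187 and 0.0587 with vehicle (-0.59), named here after its value was seen. Over all measured genes there, 0.515% were higher and 2.48% lower. In fibroblast-like cells 0 of 11 measured genes passed, where 3.64% of all measured genes did. The medians of the listed genes were -0.03 in SMC-like and 0.06 in fibroblast-like cells.

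Within classes, levels of some of the 7 genes and of their substrates were related from cell to cell. In fibroblast-like cells (1072 with GLPG0187 and 895 with vehicle), Spearman's rho between Pcolce and Col1a1 was 0.40 with GLPG0187 and 0.41 with vehicle, between Serpinh1 and Col1a1 0.35 with GLPG0187 and 0.43 with vehicle, and between Lox and Eln 0.29 with GLPG0187 and 0.32 with vehicle. In the Tbx20 cluster (906 cells with GLPG0187 and 714 with vehicle), Loxl2 was related to Col1a1 at 0.42 with GLPG0187 and 0.42 with vehicle and to Plod2 at 0.38 with GLPG0187 and 0.37 with vehicle. In contractile SMC-like cells (1579 with GLPG0187 and 675 with vehicle), Loxl1 and Eln gave 0.21 with GLPG0187 and 0.19 with vehicle. Lox and Eln gave 0.19 with GLPG0187 and 0.15 with vehicle. These are weak in sparse values and such sizes were not limited to substrates. With Myh11, Lox gave 0.22 with GLPG0187 and 0.16 with vehicle, and Loxl1 0.12 with GLPG0187 and 0.10 with vehicle. Serpinh1 gave 0.23 with GLPG0187 and 0.13 with vehicle with Hspa1a, against 0.07 with GLPG0187 and 0.13 with vehicle with Col1a1. Other pairs differed between the libraries: Loxl1 and Col1a1 gave 0.56 over the 64 modulated SMC-like cells with GLPG0187 and 0.21 over the 126 with vehicle, and Loxl1 and Eln gave 0.27 with GLPG0187 and 0.11 with vehicle in Gdf10 fibroblast-like cells. These differences were not tested. These are descriptions across cells of 1 library each, which share that library and its depth correction.

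In macrophage-like cells the same measure between Serpinh1 and Col1a1 was 0.65 over 341 cells under GLPG0187 and 0.72 over 179 cells under vehicle, and Loxl1 and Pcolce gave 0.42 with GLPG0187 and 0.66 with vehicle. Col1a1 was also related there to Loxl1 (0.39 with GLPG0187 and 0.37 with vehicle) and to Pcolce (0.39 with GLPG0187 and 0.47 with vehicle). Serpinh1 was related to Myh11 as well (0.39 with GLPG0187 and 0.28 with vehicle) and to Eln (0.29 with GLPG0187 and 0.44 with vehicle). The part of RNA from other cells in these low levels was not tested.

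Over 11 clusters in both libraries (22 points), the genes whose level was most like that of each member, by Pearson's r of log2 means among 7227 genes, were found as follows. Lox was closest to Pcsk5, Efna5 and Ogn (r of 0.89 for each). Loxl1 was closest to Il11ra1, Col6a3 and Kdelr3 (0.96, 0.96 and 0.95), and Loxl2 to Rhou, Angptl2 and Rsph9 (0.93, 0.92 and 0.91). Plod2 was closest to Auts2, Aga and Phactr1 (0.96, 0.95 and 0.95), and Plod1 to Pea15a, Luzp1 and Trim47 (0.86 for each). Pcolce was closest to Mdk, Serpinf1 and Lama2 (0.97, 0.95 and 0.94), and Serpinh1 to Ryk, Nedd4 and Sparc (0.97, 0.96 and 0.96).

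Among the 7 genes, Lox and Loxl2 were related weakly over these 22 points (r = 0.25), while Loxl1 and Pcolce (0.86) and Plod2 and Serpinh1 (0.89) were closer. Plod1 and Loxl2 gave -0.12. Against the substrates, Lox was closer to Eln (0.84) than to Col1a1 (0.64), whereas Loxl1 was closer to Col1a1 (0.94) than to Eln (0.56) and Loxl2 had 0.61 with Col1a1 and 0.10 with Eln. The points share libraries and depth correction, and the clusters were formed from other genes of the same cells.

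In the GRCm38 annotation all 7 are protein-coding genes. Lox lies on chromosome 18 (52516067 to 52529867, minus strand), Loxl1 on chromosome 9 (58287738 to 58313186, minus) and Loxl2 on chromosome 14 (69609068 to 69695834, plus). Plod1 lies on chromosome 4 (147909753 to 147936767, minus) and Plod2 on chromosome 9 (92542223 to 92608428, plus). Pcolce lies on chromosome 5 (137605103 to 137613784, minus) and Serpinh1 on chromosome 7 (99345376 to 99353239, minus). The 3' tags counted here do not tell the transcripts of a gene apart.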

How the data were processed

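Each deposited file holds 1 value per gene and cell. Per the labels, libraries were made with 10x Genomics 3' version 3 chemistry from sorted aortic cells; per the submitters' processing notes, Cell Ranger and Seurat were used and the build was mm10, with no version stated. The values the authors deposited are whole numbers on a depth-corrected scale, treated as a score and not as raw UMIs, since totals varied by only 5.69% with GLPG0187 and 5.81% with vehicle (coefficient of variation). The correction method is not stated in the sources used. No count model was used.

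Cells under 200 genes or over 20% mitochondrial values would have been removed; there were 0. Scrublet (scanpy 1.11.5) called doublets in each library separately. For clustering each cell was brought to a total of 10000 and logs were taken. Variable genes (2000) excluded mitochondrial, ribosomal protein, sex-linked marker and the 7 described genes; 30 principal components, 20 neighbours and Leiden clustering (leidenalg 0.10.2, resolution 0.5) followed. Without that exclusion, Lox, Loxl2 and Pcolce would have been among the variable genes. A cluster was named when at least 3 markers of a class, and 75% of its list, were above 0 in 25% of cells and over 3 times the median cluster, and no other class had more markers than its own among its 10 leading genes. These thresholds and the rule for modulated cells were chosen with the data in view. Groups come from the treatment label.

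The 7 genes, the lists and the markers were chosen with earlier results of these data known. The text names the 7 genes, listed genes past 1.5-fold in SMC-like or fibroblast-like cells with a mean of at least 0.1, 10 listed genes whatever their values, and the 3 genes most like each member; likeness used log2(mean + 0.1) for genes with a mean of at least 0.5 in a cluster. Pcolce2, Egln3, Postn, Fmod, Col5a2 and Adamts2 fall outside this rule and were named after their values were seen. Exact Clopper-Pearson 95% intervals accompany shares of cells. Alternatives covered clustering, doublets, scaling, pseudocount, extreme cells, genes detected, Xist-only and Y-only cells and the minimum sum. The ratio step was tested on simulated data. Python 3.11.15, numpy 2.4.6, scipy 1.17.1, pandas 2.3.3 and matplotlib 3.10.9 were used, with gene positions from GENCODE.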

Additional observations from a re-analysis of the deposited data

Results flagged for a closer look

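For 2 of the 7 genes, log2 ratios of GLPG0187 over vehicle pointed in opposite directions in different cell classes by more than the tolerance used here (0.32). Lox was higher with GLPG0187 in the Tbx20 cluster (0.50) and in Gdf10 fibroblast-like cells (0.34), and lower in the Chad cluster (-0.38) and in lymphatic endothelial-like cells (-0.36). Pcolce was higher in modulated SMC-like cells (0.35) and lower in macrophage-like cells (-0.80). With 1 library per group, none of these differences between classes was tested. Lox in the Tbx20 cluster was close to the macrophage level, and the summed SMC markers there averaged 19.2 with GLPG0187 (range 1 to 195) and 16.8 with vehicle (range 0 to 168), whose part was not tested. In Gdf10 fibroblast-like cells those markers averaged 52.9 with GLPG0187 (range 3 to 729) and 58.7 with vehicle (range 2 to 826). Their part there was not tested either.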

How the results depend on the processing

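Of 626 recomputed ratios of single genes, 597 stayed within 0.32 of the value given. Another 27 moved further, 13 of them to the other sign, such as Pcolce in all SMC-like cells in Xist-only cells (0.25), Pcolce in modulated SMC-like cells under the looser rule (-0.39) and Lox in lymphatic endothelial-like cells (up to 0.43). Of the ratios past 1.5-fold, 2 values reversed: Pcolce in macrophage-like cells was 0.17 in cells within the interquartile range of genes detected and 0.038 in Xist-only cells. Of 78 recomputed counts and medians, 70 stayed the same. The number of the 7 genes past 1.5-fold in SMC-like cells became 1 with genes scaled within each library (Pcolce lower, -0.65), 1 in Xist-only cells (Plod1 higher, 0.62) and 1 in Y-only cells (Pcolce lower, -0.68). The share of all genes past 1.5-fold under these settings is not given here. These counts, and those of the other processing genes below, therefore cannot be read against it. Other processing genes in SMC-like cells numbered 1 with scaling within each library, 2 in Xist-only cells and 2 with no minimum sum, and in fibroblast-like cells 1 in Xist-only cells and 1 with no minimum sum; apart from the added low genes when the minimum is dropped, the cause was not tested. The median ratio of the 7 genes ranged from -0.04 to 0.12 in SMC-like cells and from -0.12 to 0.10 in fibroblast-like cells. Lox in the Tbx20 cluster kept its direction in all alternatives (0.37 to 0.68), as did Lox in the Chad cluster (-0.73 to -0.11), Loxl2 in the Chad cluster (0.36 to 0.58) and Plod1 in lymphatic endothelial-like cells (0.43 to 0.92), whereas Pcolce in contractile SMC-like cells did not (-0.51 to 0.66). Leaving out a 33-cell sub-cluster, loosening the modulated rule and leaving out the highest Lox cell of each library were alternatives added with the data in view. No paired analysis was possible because each group holds 1 library and the labels carry no replicate numbers. Raw depth is unknown, and sums below 100 were not read.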
